A study of Mus musculus with 9 samples.

Results

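This section compares gastrocnemius muscle of mice without the kinase p38α in muscle with that of mice without both p38α and p38γ. The libraries were taken by genotype label: 3 labelled p38alphaMCK-KO (p38α KO, here the single KO) and 3 labelled p38alpha/gammaMCK-KO (p38α/γ KO, here the double KO), which are 6 of the 9 libraries of the series. The other 3, labelled control, entered the fit and are given for reference. All 9 came from mice fed a high-fat diet (HFD) for 6 weeks, so diet was shared by every group. In this naming, MCK marks deletion driven by the muscle creatine kinase promoter, which is active in striated muscle fibres, so endothelial, connective tissue, nerve and immune cells of the same muscle keep both genes. The p38α gene (Mapk14) is therefore targeted in both knockout groups, and the p38γ gene (Mapk12) in the double KO alone. Age, sex, strain and whether a library held 1 animal are not given in the sources used here, so every p-value below rests on the scatter among libraries alone, which may be technical.

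The p38 kinases are a branch of the mitogen-activated protein kinases that answers stress, cytokines and muscle contraction. The kinases MKK3 and MKK6 (Map2k3 and Map2k6) phosphorylate and activate them, and MKK4 (Map2k4) can do so as well. p38α is found in most tissues, while p38γ is especially abundant in skeletal muscle. The series title names the cytokine IL-15, which muscle fibres make and which is held on the cell surface by its receptor chain IL-15Rα.

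The values are the authors' normalised counts per gene, and 13137 of the 13179 genes in the table reached a value of 1 in at least 3 of the 9 libraries and were tested. Depth inferred from the steps between low values was 23.82 to 27.9 M reads in the 6 knockout libraries. The muscle fibre genes Ckm, Acta1, Myh4, Myh1, Mylpf and Tnnt3 were all among the 27 most abundant genes of the single KO group. The single KO libraries were the more scattered of the knockout groups. On the first principal component of all 9 libraries, which held 54.23% of the variance, single KO library 1 lay at 35.98, library 2 at 1.001 and library 3 at -9.15, while the double KO libraries lay at 11.49, 31.55 and 23.95. Library 1 correlated on average at r = 0.968 with the other 2 single KO libraries and at r = 0.981 with the 3 double KO libraries. Library 3 also stood apart from its group, at r = 0.9745 with the other 2 single KO libraries and r = 0.9773 with the controls. Results are therefore given with and without library 1 where it moves them. Library 1 was singled out after its values were seen, for its likeness to the double KO. Leaving it out therefore tends to widen the differences and narrow the spread. Calls in that fit describe single KO libraries 2 and 3 and are not separate support. The slow fibre and matrix medians are also given without library 3.

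Between the knockouts, 58 genes (0.442% of those tested) passed a Benjamini-Hochberg adjusted p of 0.05 in limma. Of these, 42 (0.32%) were higher and 16 (0.122%) were lower in the double KO. The 3 values of one knockout lay outside the range of the other for all 58 of these genes, which was so for 14.3% of all genes tested (7.58% higher and 6.73% lower). The difference was at least 2-fold for 24 of the higher and 12 of the lower genes, with fold changes here and below on the log2(value + 1) scale. The exceptions are folds given as a bound against the value of 3 reads, which are plain ratios of values. The median difference over all genes tested was 0.0061 on the log2 scale. Protein-coding genes gave 40 of the 58 calls (0.328% of 12205 tested) and annotated pseudogenes gave 13 (4.59% of 283 tested).

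The number of calls depended on which library was in the fit. Without single KO library 1 it was 1872, or 14.2% of genes tested, with 859 higher and 1013 lower. The count was 23 without single KO library 2, without double KO library 1 it was 37, without double KO library 3 it was 24, and without control library 3 it was 38. Of the 58 genes, 21 were called whichever of the 9 libraries was left out, and the other 37 lost the call without at least 1 of them. No call was lost without single KO library 1.

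**Figure D1:**
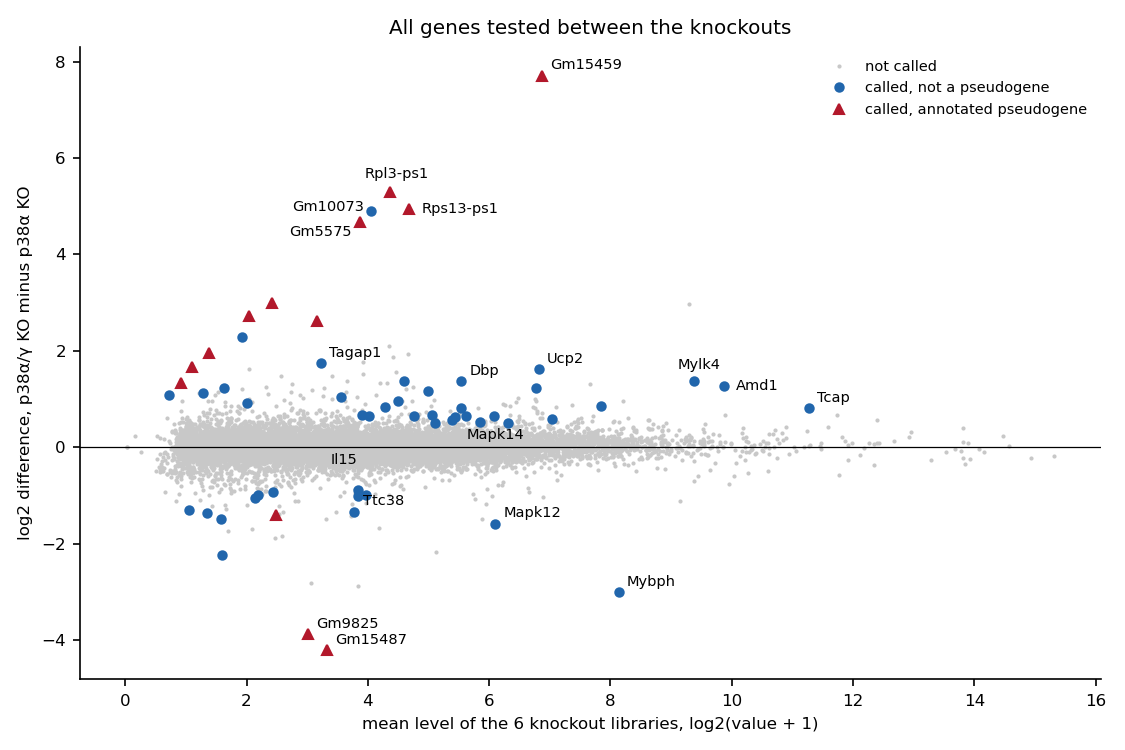
Log2 difference between the knockouts (p38α/γ KO, the double KO, minus p38α KO, the single KO, vertical axis) against the mean level of the 6 knockout libraries as log2(value + 1) (horizontal axis), 1 point per gene. Blue circles and red triangles are the 58 called genes, with the 13 called pseudogenes as triangles; Mapk12 lies at -1.59, Mapk14 at 0.04, and the most extreme points in both directions are pseudogenes.

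Mapk14 was low in both knockouts and Mapk12 separated them. Mapk14 (ENSMUSG00000053436, chr17:28691329-28748406, GRCm38) had values of 142.7, 149.3 and 156.7 in the controls, 43.8, 45.48 and 40.31 in the single KO and 54.73, 37.04 and 42.74 in the double KO. The knockout values overlapped and all 6 lay below the controls. The difference between the knockouts was 0.04 ± 0.13 (SE) on the log2 scale (adjusted p = 0.932 in limma; two-sided exact permutation p = 0.9). Against the controls the log2 difference was -1.77 (adjusted p = 0.000206) in the single KO and -1.73 (adjusted p = 0.000137) in the double KO, contrasts in which 10.4% and 14.4% of all genes tested were called lower. Which part of either gene was deleted is not given in the sources used here. In whole muscle, fewer cells of a type and less RNA per cell cannot be told apart in any value of this section.

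Mapk12 (ENSMUSG00000022610, chr15:89130584-89140703) had values of 139.9, 137.9 and 152.2 in the controls, 96.52, 102.9 and 105.1 in the single KO and 31.19, 35.5 and 32.79 in the double KO. The 3 groups did not overlap, so the libraries follow their labels for this gene. The mean fell from 101.5 ± 4.46 (SD, n = 3) in the single KO to 33.16 ± 2.18 in the double KO (log2 difference -1.59 ± 0.08, adjusted p = 8.91e-06 in limma). The two-sided exact permutation test gave p = 0.1, the smallest that 3 against 3 libraries allow. Against the controls the log2 difference was -0.49 (adjusted p = 0.00601) in the single KO and -2.08 (adjusted p = 9.84e-07) in the double KO.

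With all libraries, none of the other p38 pathway genes passed between the knockouts. Map2k6 had 63.87, 83.78 and 104.3 in the single KO and 70.7, 64.1 and 70.88 in the double KO, against 18.53 to 19.83 in the controls. Its log2 difference between the knockouts was -0.26 ± 0.15 (adjusted p = 0.524), and it was called lower in the fit that left out single KO library 1 (-0.44, adjusted p = 0.0221). Map2k3 differed by 0.20 (adjusted p = 0.643), Map2k4 by 0.06 (adjusted p = 0.864) and Mapk11, the p38β gene, by 0.21 at values of 1.23 to 2.46 (adjusted p = 0.679). Mapk13, the p38δ gene, was not tested. Over the list of 20 p38 kinases and activators tested, Mapk12 was the only call with all libraries and the median difference was 0.04.

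Il15 (ENSMUSG00000031712) did not pass between the knockouts. Its values were 11.48, 11.22 and 7.74 in the single KO and 6.29, 6.23 and 8.25 in the double KO, so that 2 single KO libraries were high and the third fell within the double KO range. The controls had 7.72, 5.08 and 5.01. The log2 difference between the knockouts was -0.48 ± 0.19 (adjusted p = 0.357 in limma; exact permutation p = 0.2). Beside it, Il15 differed from control by 0.69 (adjusted p = 0.0368; 7.32% of all genes tested were called higher in that contrast) in the single KO and by 0.21 (adjusted p = 0.439) in the double KO, and these 2 contrasts share the control libraries. Il15ra, the receptor chain, differed between the knockouts by -0.01 (adjusted p = 0.988). Of the 10 genes on the list of IL-15, its receptors and their Jak/Stat signalling, 0 passed, 1 was lower at an unadjusted p below 0.05 (5.65% of all genes tested were), and 8 lay below zero with a median of -0.27.

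**Figure D2:**
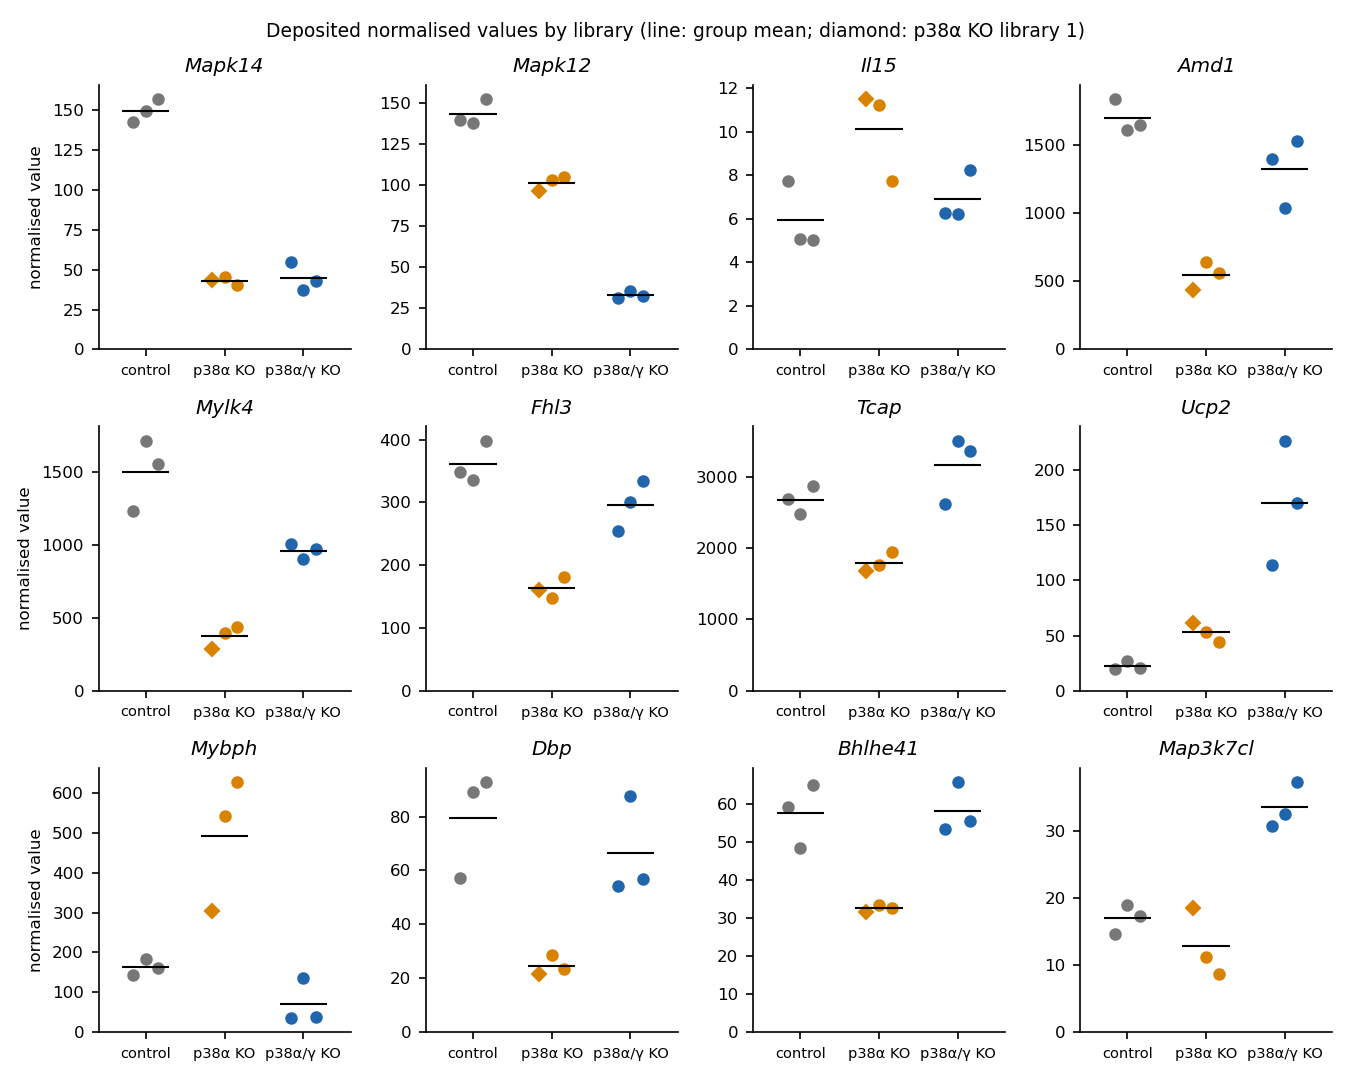
Deposited normalised values (vertical axes, from 0) of 12 genes in the 3 controls, 3 single KO and 3 double KO libraries; points are libraries, lines are group means and the diamond is single KO library 1. Mapk14 is low in both knockouts, Mapk12 is lowest in the double KO, and Amd1, Mylk4, Fhl3, Dbp and Bhlhe41 are lowest in the single KO.

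The muscle fibre genes Mylk4, Fhl3 and Tcap were higher in the double KO. Mylk4, a myosin light chain kinase family member, had values of 289.9, 397.1 and 438.9 in the single KO and 1002, 905.6 and 969.5 in the double KO, against 1234 to 1710 in the controls. The lowest double KO library was above the highest single KO library, and all controls were above both. Mylk4 was 2.59-fold higher in the double KO (log2 difference 1.37 ± 0.17, adjusted p = 0.00611) and was called whichever library was left out. Fhl3, a LIM-domain protein of muscle, had 160.2, 148.6 and 180.7 in the single KO and 254.1, 300.8 and 334.4 in the double KO (log2 difference 0.85 ± 0.12, adjusted p = 0.0157). Its control values were 336.2 to 397.9. Without single KO library 2, double KO library 2 or double KO library 3, the adjusted p of Fhl3 was 0.0763 to 0.0917.

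Tcap, which encodes the titin cap protein telethonin of the Z-disc, had 1678, 1763 and 1943 in the single KO and 2616, 3499 and 3361 in the double KO. The difference was 0.81 ± 0.13 on the log2 scale (adjusted p = 0.0384), and the controls, at 2472 to 2866, overlapped the double KO. Its call was lost without single KO library 2, double KO library 2 or 3, or any of the 3 controls (adjusted p 0.0702 to 0.201). Myh14, a non-muscle myosin heavy chain named here after its values were seen, was 60.86 to 67.02 in the single KO and 85.45 to 97.26 in the double KO (log2 difference 0.50, adjusted p = 0.0399); its call was lost in 8 of the 9 fits without 1 library, all but that without single KO library 1 (adjusted p 0.0545 to 0.212).

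Mybph moved the other way and had the widest difference of the called coding genes that lay below zero. It encodes myosin binding protein H of the thick filament. Its values were 304.1, 542.7 and 625.4 in the single KO and 34.91, 137 and 39.18 in the double KO, with 143 to 184.4 in the controls, so the single KO lay above and the double KO below the control range. Between the knockouts it was 8.05-fold lower in the double KO (log2 difference -3.01 ± 0.46, adjusted p = 0.0222). Its call was lost without single KO library 2 or 3, double KO library 1 or 3, or control library 2 or 3 (adjusted p 0.0522 to 0.124), with a log2 difference of -3.63 to -2.66 over all 9 such fits.

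The fibre-type lists gave few calls with all libraries. Of 22 fast fibre genes, 1 passed (Mylk4), and the median difference was 0.11. Of 18 slow fibre genes, 0 passed in limma, 2 were higher at an unadjusted p below 0.05, which was so for 6.33% of all genes tested, and all 18 lay above zero with a median of 0.60. The summed slow fibre value was 10040, 6389 and 3424 in single KO libraries 1 to 3 and 7343, 7817 and 9378 in the double KO, so the single KO values ran from below to above the whole double KO range. Myh7, the slow myosin heavy chain, followed the same spread, at 295.3, 325.6 and 75.74 against 308.4, 181.7 and 382.4 (log2 difference 0.52, adjusted p = 0.755). The slow fibre median was 1.08 without single KO library 1 and 0.05 without single KO library 3.

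Calls without single KO library 1, left out for its likeness to the double KO, describe libraries 2 and 3 and are not separate support. Leaving out single KO library 1, 6 of 18 slow fibre genes were called higher in the double KO, where 6.54% of all genes tested were. They were Csrp3 (muscle LIM protein, log2 difference 1.79, adjusted p = 0.028), Sln (sarcolipin, 1.82, adjusted p = 0.0121), Fhl2 (1.19, adjusted p = 0.0137), Casq2 (cardiac and slow calsequestrin, 1.13, adjusted p = 0.0334), Myoz2 (1.03, adjusted p = 0.0257) and Mb (myoglobin, 0.83, adjusted p = 0.0274). In the same fit some of the 22 fast fibre genes were called in each direction, where 6.54% of all genes tested were called higher and 7.71% lower. Myh2 and Myh1, the myosins of the IIa and IIx fibre types, were higher by 1.11 (adjusted p = 0.0485) and 0.92 (adjusted p = 0.0385), and Mylk4 was the third gene called higher. Myh4, the myosin of the fastest fibre type, was lower by a log2 difference of -0.70 (adjusted p = 0.0337), together with Actn3 (-0.74), Mybpc2 (-0.64) and Ampd1 (-0.99). With library 1 included, Myh4 had 16780, 40520 and 49300 in the single KO and 29670, 26420 and 26350 in the double KO (adjusted p = 0.817), so that library 1 lay on the other side of the double KO libraries from libraries 2 and 3.

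The Z-disc and stretch gene list held 2 calls among 22 tested genes, Fhl3 and Tcap, both higher, with 7 genes higher and 1 lower at an unadjusted p below 0.05 (6.33% and 5.65% of all genes tested) and a median of 0.25. With single KO library 1 left out, the list had 9 genes called higher and 3 lower, where 6.54% and 7.71% of all genes tested were. Among those higher was Igfn1, an immunoglobulin-domain protein of the sarcomere, with 9.24, 6.49 and 2.08 in the single KO against 36.38, 19.75 and 11.2 in the double KO (log2 difference 1.77, adjusted p = 0.175 with all libraries; 2.14, adjusted p = 0.0191 without library 1). Fbxo32 and Trim63, ubiquitin ligases known for their rise in muscle wasting, were not called with all libraries. Trim63 had 217.5, 753.3 and 1559 in the single KO and 287.6, 283.7 and 310.3 in the double KO (log2 difference -1.11, adjusted p = 0.45). Without library 1, Trim63 was lower in the double KO by -1.88 (adjusted p = 0.00392), Fbxo32 by -1.19 (adjusted p = 0.0146), and 8 of the 25 genes of the atrophy list were called lower, where 7.71% of all genes tested were. With all libraries, 0 of the 25 passed in limma and 0 were higher or lower at an unadjusted p below 0.05. The summed atrophy value was 4089, 7216 and 9946 in single KO libraries 1 to 3 and 5059 to 5666 in the double KO. Library 1 thus lay below the double KO range and the other single KO libraries above it.

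Amd1, a gene of polyamine metabolism, was higher in the double KO. It encodes S-adenosylmethionine decarboxylase, which supplies the aminopropyl groups of spermidine and spermine. Its values were 434.7, 640.7 and 564.9 in the single KO and 1402, 1039 and 1532 in the double KO, against 1609 to 1836 in the controls, and the knockouts did not overlap. It was 2.42-fold higher in the double KO (log2 difference 1.27 ± 0.17, adjusted p = 0.0128). Without double KO library 1 or 3 the adjusted p was 0.0617 and 0.0728. Amd2, a near-identical copy with 99.56% sequence identity, had 3.89 to 8.31 and 10.29 to 13.41, and the Amd1 and Amd2 sum differed by 1.27 as well. Of the 12 polyamine genes tested, Amd1 alone passed, 6 were higher at an unadjusted p below 0.05 (6.33% of all genes tested), and the median was 0.31. The antizymes Oaz1 and Oaz2, which bind and restrain ornithine decarboxylase, differed by 0.37 (adjusted p = 0.18) and 0.42 (adjusted p = 0.151) and were called higher without single KO library 1 (0.45 and 0.51), where Sms, spermine synthase, was called lower (-0.43). Odc1 itself had 116.1, 129.1 and 196.3 against 198.8, 189.6 and 222.8 (log2 difference 0.50, adjusted p = 0.298).

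Mtap, the enzyme that recycles the methylthioadenosine left over from polyamine synthesis, was lower in the double KO. It had 13.27, 19.23 and 22 in the single KO and 7.86, 9.10 and 8.13 in the double KO, and 15.67 to 18.69 in the controls (log2 difference -1.01 ± 0.16, adjusted p = 0.0348). The call was lost in 8 of the 9 fits without 1 library, all but that without single KO library 1 (adjusted p 0.0576 to 0.178).

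Ucp2, a carrier of the mitochondrial inner membrane in the uncoupling protein family, was higher in the double KO than in the single KO. Its values were 20.27 to 26.8 in the controls, 61.34, 53.65 and 44.62 in the single KO and 114.3, 226.3 and 170.5 in the double KO, and no pair of groups overlapped. The difference between the knockouts was 3.07-fold (log2 difference 1.62 ± 0.23, adjusted p = 0.0133). Its adjusted p was 0.077 without single KO library 2 and 0.0869 without double KO library 3. Ucp2 was the one call among 34 genes of fatty acid uptake and oxidation, whose median was 0.09. None of the 40 nuclear oxidative phosphorylation genes, the 27 of the tricarboxylic acid cycle or the 15 encoded in the mitochondrion passed in limma. At an unadjusted p below 0.05, 0, 2 and 2 of them were lower and none higher (5.65% and 6.33% of all genes tested were). Their medians were 0.05, -0.05 and -0.09.

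Msrb1, a selenoprotein that reduces oxidised methionine, had 80.05, 55.14 and 57.63 in the single KO and 122.5, 160.6 and 170.8 in the double KO (log2 difference 1.23 ± 0.16, adjusted p = 0.011). The controls, at 90.43 to 106.6, lay between the knockouts. Its adjusted p was 0.058 to 0.0681 without single KO library 2, double KO library 2 or double KO library 3. Of the 27 genes tested on the antioxidant and metallothionein list, 0 passed in limma and the median was -0.005. At an unadjusted p below 0.05, 1 was higher and 1 lower (6.33% and 5.65% of all genes tested were). Glrx, glutaredoxin, which was picked after its values were seen, had 23.92 to 25.57 and 38.02 to 41.33 (log2 difference 0.67, adjusted p = 0.0433) and lost the call in 7 of the 9 fits without 1 library, all but those without single KO library 1 and control library 1 (adjusted p 0.0627 to 0.208).

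Among circadian clock genes, Dbp and Bhlhe41 were higher in the double KO. Dbp, a transcription factor whose promoter is driven by CLOCK and BMAL1, had 21.47, 28.53 and 23.35 in the single KO and 54.38, 87.68 and 56.87 in the double KO, with 57.21 to 92.61 in the controls (log2 difference 1.38 ± 0.22, adjusted p = 0.0326). Bhlhe41, a repressor of the same loop, had 31.72, 33.51 and 32.7 against 53.51, 65.71 and 55.6, with 48.56 to 64.96 in the controls (log2 difference 0.81 ± 0.12, adjusted p = 0.0183). For both genes the single KO lay below all other libraries and the controls overlapped the double KO. The Bhlhe41 call was lost without single KO library 2, double KO library 2 or double KO library 3 (adjusted p 0.0763 to 0.0835), and the Dbp call in 7 of the 9 fits, all but those without single KO library 1 and control library 1 (0.0565 to 0.0951).

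Of the 22 clock genes tested, Dbp and Bhlhe41 were the 2 calls, 6 were higher and 1 lower at an unadjusted p below 0.05 (6.33% and 5.65% of all genes tested), and the median was 0.21. Per2 had 2.84, 4.51 and 3.82 in the single KO and 6.78, 11.65 and 8.74 in the double KO (log2 difference 1.08, adjusted p = 0.138). Ciart had 1.12, 2.25 and 2.58 against 4.89, 7.77 and 5.30 (1.24, adjusted p = 0.112), and Hlf had 4.997, 9.24 and 8.27 against 16.2, 14.51 and 14.64 (0.96, adjusted p = 0.0759). Arntl, which encodes BMAL1 and cycles in the opposite phase to Dbp and Per2, had 20.23, 20.48 and 38.46 against 16.38, 8.92 and 12.1 (log2 difference -0.998, adjusted p = 0.265). In the fit without single KO library 1, Per2, Ciart and Hlf were called higher beside Dbp and Bhlhe41, where 6.54% of all genes tested were called higher. The time of day at which muscle was taken is not given in the sources used here.

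Other coding genes were higher in the double KO without belonging to a common list. Map3k7cl, named for its likeness to the kinase TAK1, had 18.58, 11.3 and 8.70 against 30.77, 32.64 and 37.29 (log2 difference 1.38 ± 0.22, adjusted p = 0.0326). Igfals, the acid-labile subunit of the circulating insulin-like growth factor complex, had 0.31 to 0.66 against 1.94 to 2.89 (1.13, adjusted p = 0.0133), and its controls, at 2.49 to 3.22, overlapped the double KO. Ier3, an immediate early gene, had 5.36 to 8.22 against 13.32 to 17.47 (1.03, adjusted p = 0.0193) and was the 1 call among 21 immediate early genes. Rhobtb3, a BTB-domain protein, had 12.72 to 16.16 against 28.61 to 28.8 (0.96, adjusted p = 0.00198), and Tmem117, a membrane protein, 12.5 to 13.46 against 23.59 to 24.35 (0.84, adjusted p = 0.00139). Rhobtb3 and Tmem117 were called whichever library was left out.

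The remaining genes of this kind included C1qtnf4, a secreted C1q/TNF-related protein (log2 difference 0.92, adjusted p = 0.0433), Lrtm2, a leucine-rich repeat membrane protein (1.23, adjusted p = 0.0419), Spsb3, a SOCS-box protein (0.64, adjusted p = 0.0109), and Bak1, a pro-apoptotic BCL-2 family member (0.64, adjusted p = 0.0412). Among genes picked after their values were seen were Homer1, a scaffold of calcium channels and receptors (0.51, adjusted p = 0.0255), Paip1, a poly(A)-binding protein partner in translation (0.64, adjusted p = 0.0133), Ramp1, a subunit of the CGRP receptor (0.62, adjusted p = 0.0384), Pick1, a PDZ scaffold (0.56, adjusted p = 0.0391), and Atp6v1g1, a proton pump subunit (0.59, adjusted p = 0.0498). Each gene named in this paragraph lost its call in 3 to 8 of the 9 fits without 1 library, but never without single KO library 1 (adjusted p 0.0514 to 0.216 where lost). The same held for Map3k7cl, Igfals and Ier3 of the paragraph before, which lost it in 7, 3 and 4 fits (adjusted p 0.0525 to 0.168, 0.0554 to 0.0738 and 0.0536 to 0.0999).

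Genes lower in the double KO were mostly of low abundance. Ttc38, a tetratricopeptide repeat protein, had 16.68, 21.45 and 17.73 in the single KO and 5.66, 7.46 and 7.19 in the double KO, with 8.39 to 10.55 in the controls (log2 difference -1.34 ± 0.14, adjusted p = 0.00198). Apobec3, a cytidine deaminase that restricts retroviruses, had 4.79 to 5.25 against 1.91 to 2.399 (-0.98, adjusted p = 0.00411). Both were called whichever library was left out, and for both the controls lay between the knockouts. Ermard had 18.46 to 22.64 against 7.68 to 10.84 (-0.99, adjusted p = 0.0133), and Cgnl1, a cell junction protein, 15.92 to 20.08 against 7.97 to 10.01 (-0.88, adjusted p = 0.0419). Trim12a, which shares 96.53% identity with Trim12c, had 5.52 to 6.90 against 1.94 to 3.17 (-0.94, adjusted p = 0.0384). Ermard lost its call in 2 of the 9 fits without 1 library, those without single KO library 2 and double KO library 3 (0.0623 and 0.0545), Cgnl1 in 7 and Trim12a in 8 (adjusted p 0.0545 to 0.208), none of them without single KO library 1.

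Tpsab1, a tryptase that defines mast cells, had 2.62, 2.08 and 1.23 in the single KO and 0.16, 0.16 and 0.23 in the double KO, close to the value of 3 reads, which was 0.122 to 0.143 in these libraries. The controls had 0.10 to 0.20 (log2 difference -1.31 ± 0.18, adjusted p = 0.0133; 0.0617 to 0.0807 where the call was lost, without single KO library 2 or any double KO library). Tpsb2, the neighbouring mast cell tryptase with 76.85% identity, did not follow it, at 4.30, 4.39 and 2.22 against 5.69, 6.20 and 4.24 (log2 difference 0.48, adjusted p = 0.487).

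Many of the widest differences were in pseudogenes that copy an expressed gene. All 13 called pseudogenes matched a gene of the table at 92.25% to 99.84% identity, over at least 100 bases, in the GENCODE M21 transcripts. Hspa8 was the partner of both Gm15459 and Gm5575. None of the partner genes was itself called, which is the common case, since 0.442% of all genes tested were. These pseudogenes were picked after their values were seen. Reads were 51 bases long, so a read separates copy from parent only where it covers a differing base. The 4 pairs below are shown because the copy was near the floor in one knockout and clearly counted in the other; each pair is a window of 51 bases of the GRCm38 reference, on the transcribed strand, with the differing base in capitals at position 26 from the window's 5′ end.
Rpl3-ps1, chrX:13202603-13202653, plus strand: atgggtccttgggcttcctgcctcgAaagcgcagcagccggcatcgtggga
Rpl3, chr15:80082504-80082554, minus strand: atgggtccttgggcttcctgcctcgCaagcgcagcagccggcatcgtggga
Gm15459, chr5:5783417-5783467, minus strand: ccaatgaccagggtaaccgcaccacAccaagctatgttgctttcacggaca
Hspa8, chr9:40802011-40802061, plus strand: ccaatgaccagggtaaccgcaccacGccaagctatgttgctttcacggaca
Gm15487, chr6:37806171-37806221, plus strand: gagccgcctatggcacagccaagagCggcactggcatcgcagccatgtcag
Atp6v0c, chr17:24164826-24164876, minus strand: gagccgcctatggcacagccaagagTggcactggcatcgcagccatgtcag
Gm9825, chr6:7983188-7983238, minus strand: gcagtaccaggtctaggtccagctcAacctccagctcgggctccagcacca
Rnps1, chr17:24418603-24420246, plus strand, across an intron: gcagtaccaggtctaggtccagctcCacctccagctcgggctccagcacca
Written from the parent to the copy, the substitutions are C26A for Rpl3-ps1, G26A for Gm15459, T26C for Gm15487 and C26A for Gm9825.

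Rpl3-ps1 had no reads in any control or single KO library and values of 40.79, 40.56 and 35.78 in the double KO, at least 252.8-fold higher when the lowest of these is set against the highest value of 3 reads in a single KO library. Its parent Rpl3, a ribosomal protein gene identical to it in 91.2% of all windows of 51 bases, had 102.6, 78.84 and 82.85 in the single KO and 41.98, 62.39 and 48.8 in the double KO (log2 difference -0.78, adjusted p = 0.0853). Added together, copy and parent came to 88.1 ± 12.7 (SD, n = 3) and 90.1 ± 11.2, and the groups overlapped. The controls had 50.49 to 66.18 for Rpl3.

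Gm15487 and Gm9825 ran the opposite way, with reads in the single KO alone. Gm15487 had 18.84, 16.24 and 18.83 there and none in the other 6 libraries, a value at least 113.3-fold lower in the double KO by the same floor. Its parent Atp6v0c, a proton pump subunit, had 120.5, 95.3 and 104.8 in the single KO and 127.2, 146.3 and 155.7 in the double KO (log2 difference 0.42, adjusted p = 0.169). Gm9825 had 11.37, 14.86 and 15.99 in the single KO and no reads elsewhere, at least 79.29-fold lower in the double KO. Its parent Rnps1, an RNA-binding protein gene, had 53.69 to 58.42 in the single KO and 65.62 to 71.82 in the double KO, and their sum was 70.2 ± 4.8 against 69.6 ± 3.4. Relative to Mapk14 on chromosome 17, Atp6v0c starts at -4.53 Mb and Rnps1 at -4.28 Mb. Rpl3 starts at -9.05 Mb from Mapk12 on chromosome 15. Parents of other called copies lie on chromosomes without either target, such as Hspa8 on chromosome 9, Rps13 on chromosome 7 and Pcna on chromosome 2.

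Gm15459, a copy of the chaperone gene Hspa8, had at most 1 read in each control and single KO library and 363.1, 137.7 and 197.7 in the double KO (log2 difference 7.71, adjusted p = 4.43e-07). Gm5575, a second copy with 92.98% identity, had 34.94, 14.97 and 32.21 in the double KO against 0.02 to 0.06. Hspa8 itself had 1399, 1199 and 1202 in the single KO and 738.3, 910.4 and 847.5 in the double KO (log2 difference -0.61, adjusted p = 0.0517). Summed over Hspa8 and both copies, the values were 1267 ± 114 in the single KO and 1092 ± 39 in the double KO, a log2 difference of -0.21.

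**Figure D3:**
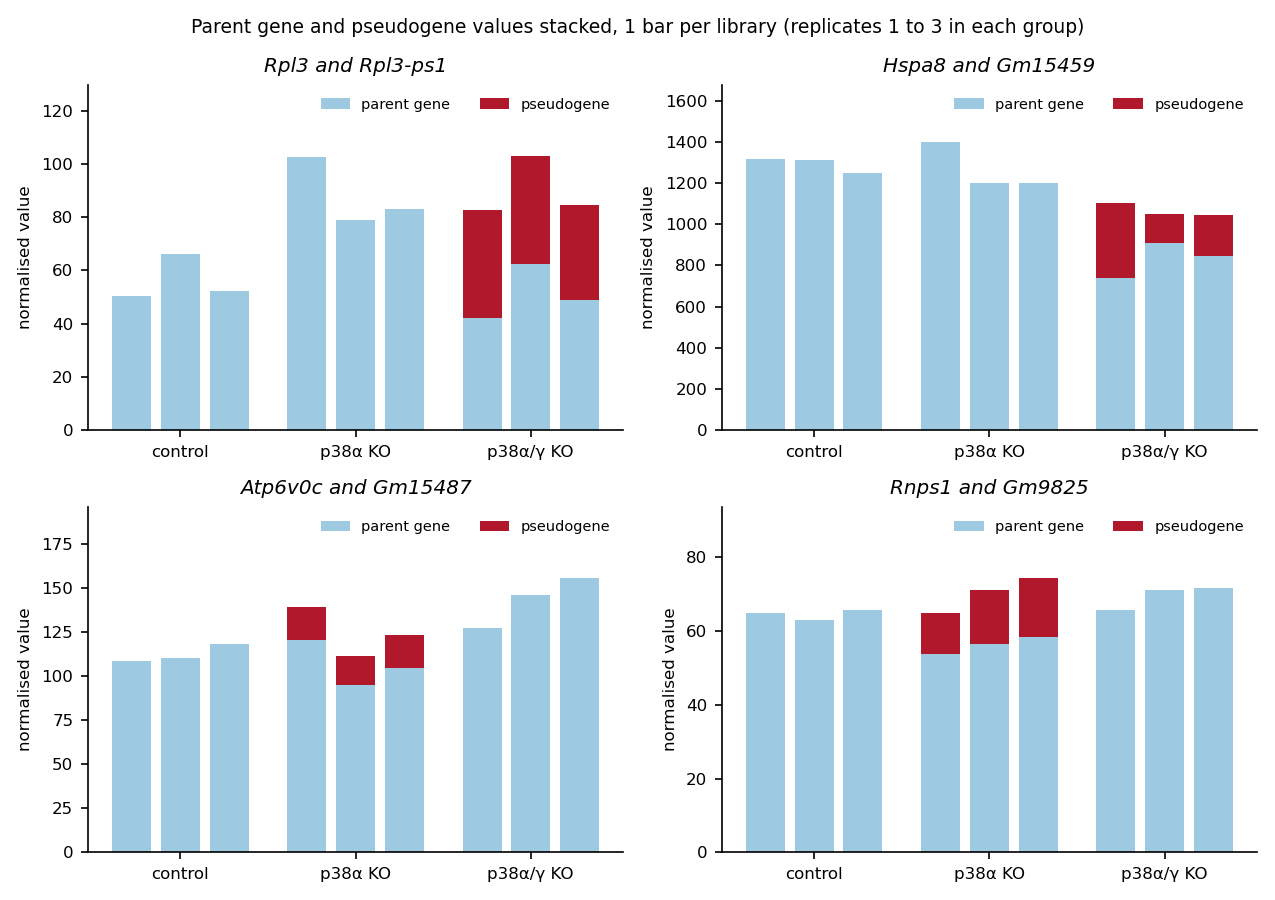
Normalised values (vertical axes, from 0) of 4 parent genes (light blue) with the called pseudogene stacked on top (red), 1 bar per library in the order of replicates 1 to 3 for control, single KO and double KO. The red part is visible in 1 knockout only, and for Rpl3, Atp6v0c and Rnps1 the bar heights of the knockouts overlap.

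The copy made up 14.4% to 43.3% of the sum for 5 pairs whose sums overlapped between the knockouts, those of Rpl3, Atp6v0c, Rnps1, Rps13 and Pcna, in the group where the copy was higher. Over all genes tested, the knockouts did not overlap for 14.3%, so overlap of a sum is the common case. For the copies of Acadm, Akt2, Gpi1, Rps15a and Mrpl48 the copy was 0.771% to 4.38% of the sum, so that the sum is nearly the parent alone and says little of the copy. For Tmem181b-ps and the 2 copies of Hspa8 the sum was lower in the double KO. Gm5575 made up 3.19% of its sum with Hspa8, so that sum too is nearly the parent alone. Pcna-ps2 had 2.96, 11.96 and 10.92 in the double KO while Pcna, the DNA polymerase clamp, had 21.95, 13.22 and 13.17 there and 24.24 to 26.67 in the single KO. The sums were 25.6 ± 1.3 and 24.7 ± 0.6. Windows of 51 bases identical to the parent made up 91.2% of Rpl3-ps1, 87.7% of Gm15487, 86.5% of Gm15459, 82.6% of Rps13-ps1, 71.6% of Gm9825 and 63.2% of Pcna-ps2, but 13.2% of Gm5575. The values and fold bounds of all these copies and of their parents are uncertain when taken singly, and how reads were assigned between copy and parent was not tested.

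Copies of a coding gene were also among the calls. Gm10073, annotated as coding, matched Rplp1 at 98.79% and had 20.75, 25.97 and 47.12 in the double KO and no reads in the single KO, at least 146.6-fold higher by the same floor, and the Rplp1 and Gm10073 sum was 395 ± 64 against 570 ± 88 without overlap. Tagap1 and Tagap, which encode GTPase activating proteins of T cells and share 99.02% identity, moved in opposite directions. Tagap1 had 3.28, 4.14 and 2.47 in the single KO and 16.27, 10.04 and 13.86 in the double KO (log2 difference 1.74, adjusted p = 0.00207), with 19.87 to 21.48 in the controls. Tagap had 2.25, 2.12 and 3.72 against 0.35 to 0.54 (-1.36, adjusted p = 0.0384; 0.0581 to 0.173 in the 7 of 9 fits without 1 library where the call was lost, which were all but those without single KO library 1 and control library 1). Their sum was 6.00 ± 0.41 in the single KO and 13.8 ± 3.2 in the double KO. Rsph3b, a radial spoke head gene, had 17.52, 19.88 and 18.69 against 43.56, 40.67 and 45.57 (1.17, adjusted p = 0.000222), and its sum with the copy Rsph3a was 25.8 ± 2.2 against 55.1 ± 4.8. Entpd4b, identical to Entpd4 over its whole transcript, differed by 0.65 (adjusted p = 0.0211; 0.0518 to 0.133 in the 5 fits without 1 library where the call was lost, those without single KO library 2, any double KO library or control library 1), and the sum of the pair was 123 ± 9 against 185 ± 12.

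Called genes were unevenly spread over chromosomes. Chromosome 17, which carries Mapk14, held 12 calls among 624 genes tested (1.92%), chromosome 13 held 8 of 471 (1.7%) and chromosome 15, which carries Mapk12, held 5 of 505 (0.99%), 1 of them Mapk12 itself. Without Mapk12, chromosome 15 held 4 of 504 (0.794%), a lower share than chromosome 4, with 7 of 802 (0.873%). With Mapk12 and Mapk14 left out, chromosomes 13, 15 and 17 together gave 24 calls among 1598 genes (1.5%). All others, chromosome 4 among them, gave 33 among 11537 (0.286%). Chromosome 13 was singled out after its count was seen. Within 5 Mb of Mapk14, 6 of 175 other genes were called (3.43%). They were Igfals, Msrb1, Spsb3 and Bak1, which were higher, and Tpsab1 and the non-coding D330041H03Rik, which were lower. D330041H03Rik had 3.72, 2.77 and 3.68 in the single KO and 0.37, 0.47 and 0.84 in the double KO (log2 difference -1.50, adjusted p = 0.00304).

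Wider windows, added after seeing the data, held 7 of 315 genes (2.22%) at 10 Mb from Mapk14 and 8 of 425 (1.88%) at 20 Mb. Over all genes tested the share called was 0.442%. Within 5 Mb of Mapk12, Ttc38 was the 1 call among 57 other genes (1.75%). Within 10 Mb, 4 of 173 (2.31%) were called (Ttc38, Apobec3, Pick1 and Tmem117). Further out on chromosome 17, Tmem181b-ps, Rsph3b, Tagap1 and Tagap all start between 6438524 and 7926000. On chromosome 13, Glrx and Rhobtb3 start at 75839868 and 75869537, and Homer1 and the unclassified transcript Gm47155 at 93299635 and 93410783. The other calls on chromosome 13 were Mylk4, which starts at 32700834, Paip1 at 119428601, Gm48139 at 96605677 and 2310020H05Rik at 99076526. The mouse strains from which these chromosomes came are not given in the sources used here.

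**Figure D4:**
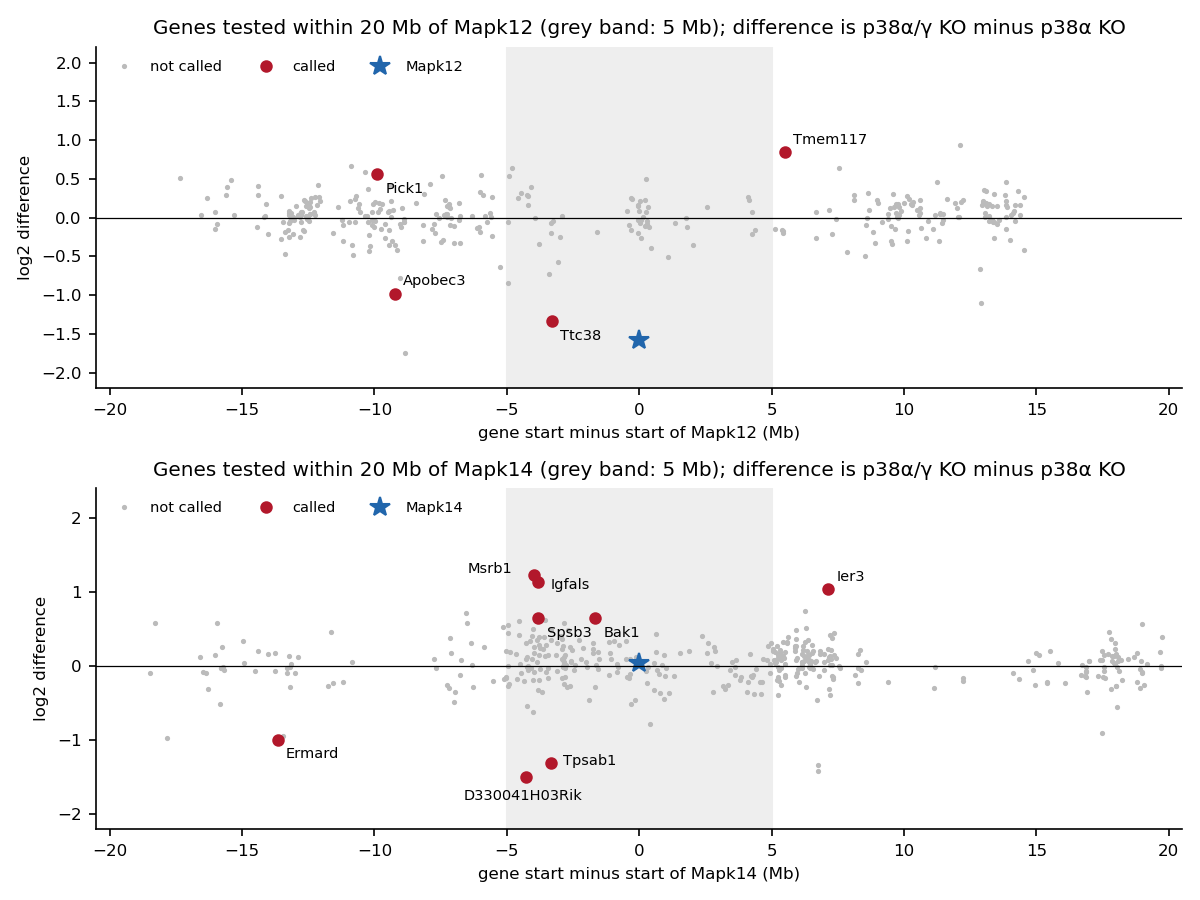
Log2 difference between the knockouts (vertical axes) of genes tested within 20 Mb of Mapk12 (top) and Mapk14 (bottom), against the distance of their starts (horizontal axes, Mb). Red points are called genes and the grey band marks 5 Mb, which holds 1 called gene around Mapk12 and 6 around Mapk14.

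Lists of connective tissue and immune genes had no call with all libraries. Of 33 extracellular matrix genes, 0 passed in limma, 3 were higher and 1 lower at an unadjusted p below 0.05 (6.33% and 5.65% of all genes tested), 29 lay above zero and the median was 0.26. The summed matrix value was 5478, 2799 and 2096 in single KO libraries 1 to 3 and 3641, 4863 and 3551 in the double KO, so library 1 was the highest of the 6 and libraries 2 and 3 the lowest. Col1a1, a chain of type I collagen, had 554.3, 181.6 and 106.7 against 283.3, 444 and 303 (log2 difference 0.61, adjusted p = 0.646). Without single KO library 1 the median of the list was 0.69 and 17 of 33 genes were called higher (6.54% of all genes tested were), among them Col1a1 (1.27, adjusted p = 0.0146), Mmp2, a gelatinase (1.19, adjusted p = 0.0117), and Postn, periostin (1.297, adjusted p = 0.0362). The median was -0.14 without single KO library 3, and none was called then.

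Marker sums of other cell types also varied among the single KO libraries. The summed level of 22 macrophage and monocyte markers was 506.7, 372.3 and 214.2 in the single KO and 370.3, 480.4 and 239.2 in the double KO, with 0 calls and a median of 0.07. That of 16 fibro-adipogenic progenitor markers was 2297 to 3014 and 2856 to 3701, with 0 calls, 4 genes higher at an unadjusted p below 0.05 (6.33% of all genes tested) and a median of 0.22, and 12 tenocyte markers had sums of 424.8 to 830.5 and 625.7 to 820.2, 0 calls and a median of 0.31. Of 12 adipocyte markers tested, 0 passed, 3 were higher and 2 lower at an unadjusted p below 0.05 (6.33% and 5.65% of all genes tested), the median was 0.76 and the sums were 1550 to 2337 and 1598 to 1849. Adipoq, the fat cell hormone adiponectin, had 12.39, 3.90 and 17.3 against 16.31, 27.01 and 22.34 (log2 difference 1.08, adjusted p = 0.527). Endothelial markers (18 tested, median -0.04), smooth muscle and pericyte markers (15, 0.04) and satellite cell and myogenesis genes (19, -0.03) had 0 calls each. Of 17 lymphocyte and 10 neutrophil markers listed, 1 and 2 were in the table. The part of the cell makeup in the results above was not tested.

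Interferon response genes had 0 calls among 29 tested, 3 lower at an unadjusted p below 0.05 (5.65% of all genes tested were lower at that level), 26 below zero and a median of -0.21. Without single KO library 1, 1 of the 29 was called lower (7.71% of all genes tested were) and the median was -0.15. In all, 46 of the 53 gene lists had no called member with all libraries, and the other 7 were the lists of p38 kinases, fast fibre, Z-disc, fatty acid, clock, immediate early and polyamine genes described above.

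**Figure D5:**
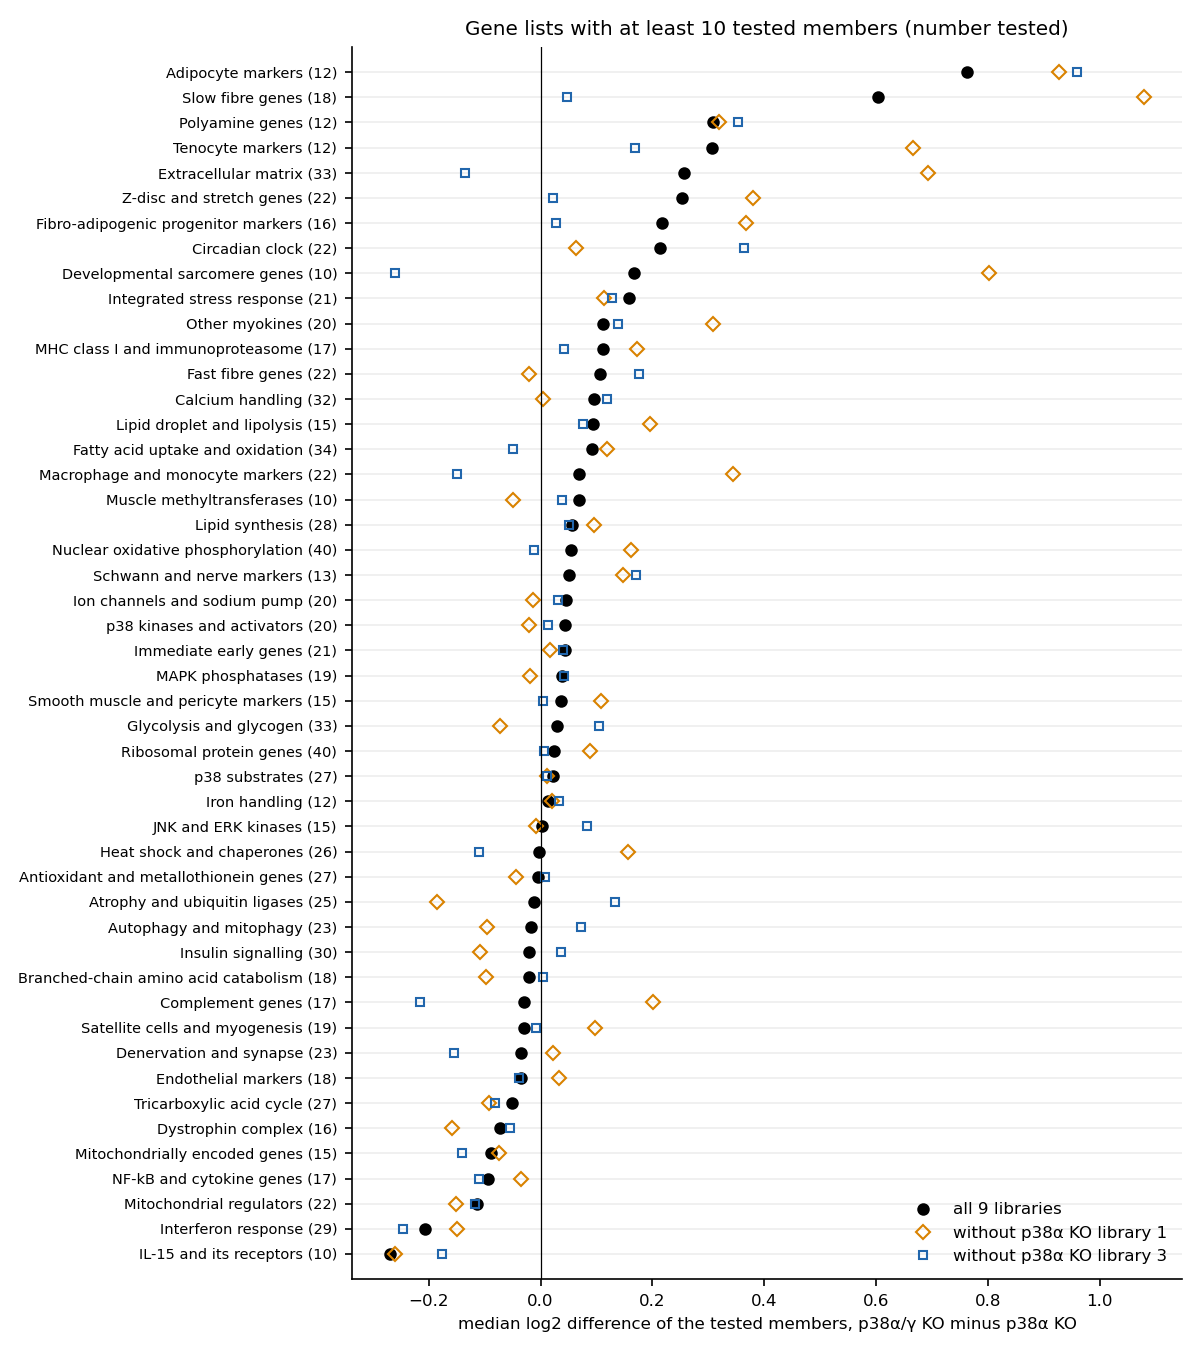
Median log2 difference between the knockouts (horizontal axis) of the tested members of each gene list with at least 10 tested members, numbers in brackets. Filled circles use all 9 libraries, diamonds leave out single KO library 1 and squares single KO library 3; the slow fibre median is 0.60, 1.08 and 0.05, and the matrix median 0.26, 0.69 and -0.14.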

How the data were processed

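Polyadenylated RNA of gastrocnemius (100 ng total RNA per library, RNA integrity number over 8) was sequenced as 51-base single reads from directional libraries, per the labels' protocols. The submitters' processing notes name CASAVA 1.8, cutadapt, RSEM 1.3.1, limma and the build GRCm38, without their roles; RSEM shares reads that match several transcripts among them by a statistical model. The deposited values, 1 table for 9 libraries, are normalised counts and were treated as a signal. Within a library every value was an odd multiple of the smallest to within 0.001, the pattern of whole reads plus a constant offset, from which depth and the value of 3 reads (0.122 to 0.143 in the knockouts) were inferred; no count test was run.

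Testing used genes that reached 1 in 3 or more of the 9 libraries. The test was that of limma 3.58.1, run under R 4.3.3 on log2(value + 1) (group means over all 9 libraries, which share 1 estimate of spread, empirical Bayes with a trend, Benjamini-Hochberg adjustment over 13137 genes, threshold 0.05). The script was tested on simulated data. Differences are double KO (p38α/γ) minus single KO (p38α). Single genes were also tested by exact permutation of the 6 libraries. The comparison, genes and 53 gene lists were chosen with earlier results of these data known; lists got counts and medians, no test. Genes named by rule were the p38 and IL-15 genes, up to 15 called genes in each direction by size of difference (without predicted genes and pseudogenes), up to 3 called genes per list, and called genes within 5 Mb of Mapk12 or Mapk14; other names were picked after their values were seen. Positions are from GENCODE M21 (13172 of 13179 identifiers matched), and copies were found with blastn 2.17.0. Alternatives were other filters, pseudocounts, scalings, weights, thresholds, library subsets and a replicate block.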

Additional observations from a re-analysis of the deposited data

How the results depend on the processing

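Over 23 other settings no called gene changed direction; 10 of the 58 were called in all 23, 2 (2310020H05Rik and Rps15a-ps8) in the 22 that tested them, 12 lost the call in 1 to 4 and 34 in 5 or more. Mapk12 was called in all 23 (highest adjusted p = 0.0166). Calls in all, higher and lower in the double KO, were 24, 17 and 7 at an adjusted p of 0.01, 121, 82 and 39 at 0.1, 22, 15 and 7 with the 6 knockout libraries alone, and 40, 32 and 8 with a minimum value of 5, which tested 42 of the 58. They were 6087, 3020 and 3067 with array weights, whose estimation stopped before it converged and gave single KO library 2 a weight of 36.5, and 3197, 1562 and 1635 with weights estimated gene by gene, chosen after seeing the data. Leaving out 1 library gave 23 to 1872, 15 to 859 and 8 to 1013, the highest values without single KO library 1. With the replicate number as a block the calls were 32, 24 and 8 over 9 libraries and 16, 10 and 6 over the 6. Deviations from the group means correlated at r = -0.331, -0.228 and 0.0885 between same-numbered knockout libraries. These few values cannot tell whether the numbers pair the libraries. TMM factors, median of ratios, pseudocounts of 0.5 and 5 and no filter gave 58, 58, 58, 59 and 58 calls.

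Il15 passed with array weights (log2 difference -0.56, adjusted p = 0.00414) and with those estimated gene by gene (-0.52, adjusted p = 0.0431), where Mapk14 changed sign (-0.070 and -0.051, not called), as it did without single KO library 3 (-0.012) and without double KO library 1 (-0.114 to 0.1615 over the fits without 1 library). Map2k4, near zero and never called, was -0.038 and -0.032 with the weights and changed sign without single KO library 1 or double KO library 1 (-0.057 to 0.1316). Il15ra, also near zero and not called, was 0.012 with quantile normalisation and changed sign without single KO library 2 or 3 or double KO library 2 (-0.1605 to 0.0934). With array weights Map2k6 (-0.28, adjusted p = 0.00372), Map2k3 (0.26, adjusted p = 0.0161) and Mapk11 (0.30, adjusted p = 0.0435) passed as well, and Map2k6 also with weights estimated gene by gene (log2 difference -0.30). The cause of these shifts was not tested. With 3 libraries a group, the exact permutation test cannot go below 0.1, and values near 0.1 rest on a few reads.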
